A study of Physcomitrium patens with 20 samples.

Results

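A set of 81 genes of the moss Physcomitrium patens is described here, out of 31967 genes in the table. They were chosen from measured values, as genes with a mean under 0.5 CPM (counts scaled to a library total of 1000000) in wild type (wt), at least 1 CPM in every library of the met/dnmt3b mutant, and means under 1 CPM in the cmt/dnmt3b and cmt mutants. The rule thus used the libraries of met/dnmt3b, cmt/dnmt3b, cmt and wt, and it left the libraries of met, dnmt3b and drm12 unused. A wt mean under 0.5 CPM was met by 13817 genes, and 211 of these also had at least 1 CPM in every met/dnmt3b library. Of the 211, 68 were kept out by the cmt/dnmt3b level alone, 2 by the cmt level alone and 60 by both, which left the 81 members.

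The mRNA libraries came from 7-day protonema, a network of cell filaments that grows from the spore (cultivar Grandsen in the labels). Replication was 3 libraries each for met/dnmt3b, dnmt3b, cmt/dnmt3b, cmt, drm12 (drm1drm2 in the design text) and wt, and 2 for met. Per the labels, batch 1 held all met/dnmt3b and met libraries with replicates 1 and 2 of cmt, drm12 and wt, and batch 2 held all dnmt3b and cmt/dnmt3b libraries with replicate 3 of cmt, drm12 and wt. The labels do not say which alleles or how many lines were used, nor whether each replicate was its own culture. The p-values therefore reflect only how these libraries vary, and that variation may be technical.

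DNA methylation in plants sits on cytosines in CG, CHG and CHH contexts, where H is any base but G, and in heterochromatin it accompanies silencing. In this moss CG methylation depends on MET and CHG methylation on CMT. Heterochromatic CHH methylation depends mainly on DNMT3b, a methyltransferase that flowering plants lack, and the DRM enzymes are counterparts of those that small RNAs guide in flowering plants. The met/dnmt3b mutant therefore lacks the enzymes for CG and for heterochromatic CHH methylation at once, while CMT is intact. The table pairs no identifier with a gene name or product, and none of the identifiers was found in the RefSeq gene table used here. The members are therefore given by identifier only, with no function and no sequence, and neither the deleted genes nor markers of protonema were analysed here.

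Across the libraries the 81 members together reached 231.3 ± 51.1 CPM in met/dnmt3b (SD, n = 3), 58.5 ± 24.7 in met (n = 2), 42.5 ± 1.503 in dnmt3b (n = 3), 26.0 ± 2.23 in cmt/dnmt3b (n = 3), 13.7 ± 0.0941 in cmt (n = 3), 39.1 ± 14.0 in drm12 (n = 3) and 19.4 ± 14.0 in wt (n = 3). The sum in met/dnmt3b was 3.96 times that in met, 5.45 times that in dnmt3b and 11.9 times that in wt. Since all met/dnmt3b libraries were in batch 1, the like comparison is with wt replicates 1 and 2, and there the factor was 8.83. All dnmt3b and cmt/dnmt3b libraries were in batch 2, so against them genotype and batch cannot be told apart. That holds also for the limit that the rule set on cmt/dnmt3b. The rule required part of this difference, so it is given with no test. In bulk tissue, fewer cells with a transcript and less transcript per cell cannot be told apart.

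**Figure D1:**
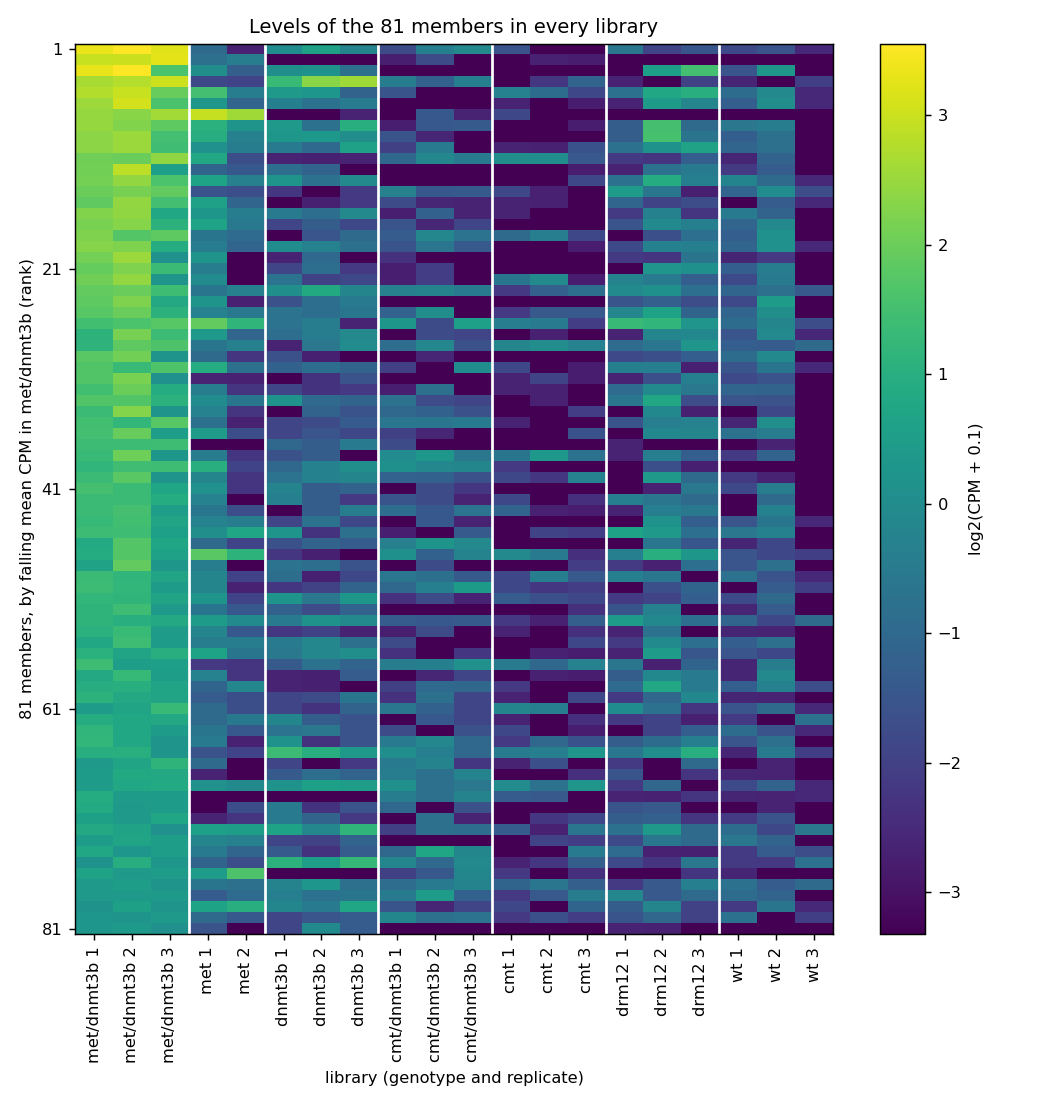
Levels of the 81 members (rows, by falling mean CPM in met/dnmt3b) in the 20 libraries (columns, by genotype and replicate), as log2(CPM + 0.1). All 3 met/dnmt3b columns are at or above 1 CPM in every row, as the rule required, and wt replicate 3 is dark in most rows, with 50 of 81 members at 0 counts.

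The levels were low everywhere. In met/dnmt3b the member means ran between 1.11 and 10.2 CPM, with a median of 2.28. CPM values are not divided by gene length, so they order reads and not transcripts. Of the members, 7 had a met/dnmt3b mean of at least 5 CPM, 43 lay between 2 and 5 CPM, and 31 were under 2 CPM. At these depths 1 CPM is between 14.2 and 21.8 counts. Where a library had no count for a gene, the level could still be as high as 3 counts, which is 0.138 to 0.211 CPM.

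Silence in wild type was not complete for most members. In wt, 4 members had 0 counts over the 3 libraries and 16 had at most 3, and the median member mean was 0.245 CPM. In drm12, whose libraries the rule did not use, 2 members had 0 counts, 5 had at most 3, and the median was 0.409 CPM. The count of members at 0 differed among wt libraries. It was 12 in wt replicate 1, 8 in wt replicate 2 and 50 in wt replicate 3, where the members summed to 5.69 CPM, against 18.6 and 33.8 CPM in wt replicates 1 and 2. Other genes with a wt mean under 0.5 CPM did not share this difference, since they summed to 639.4, 661.5 and 618.5 CPM in wt replicates 1, 2 and 3. Without wt replicate 3 the rule gives 66 genes, 63 of them among the 81, because 18 members had a mean of at least 0.5 CPM over wt replicates 1 and 2.

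**Figure D2:**
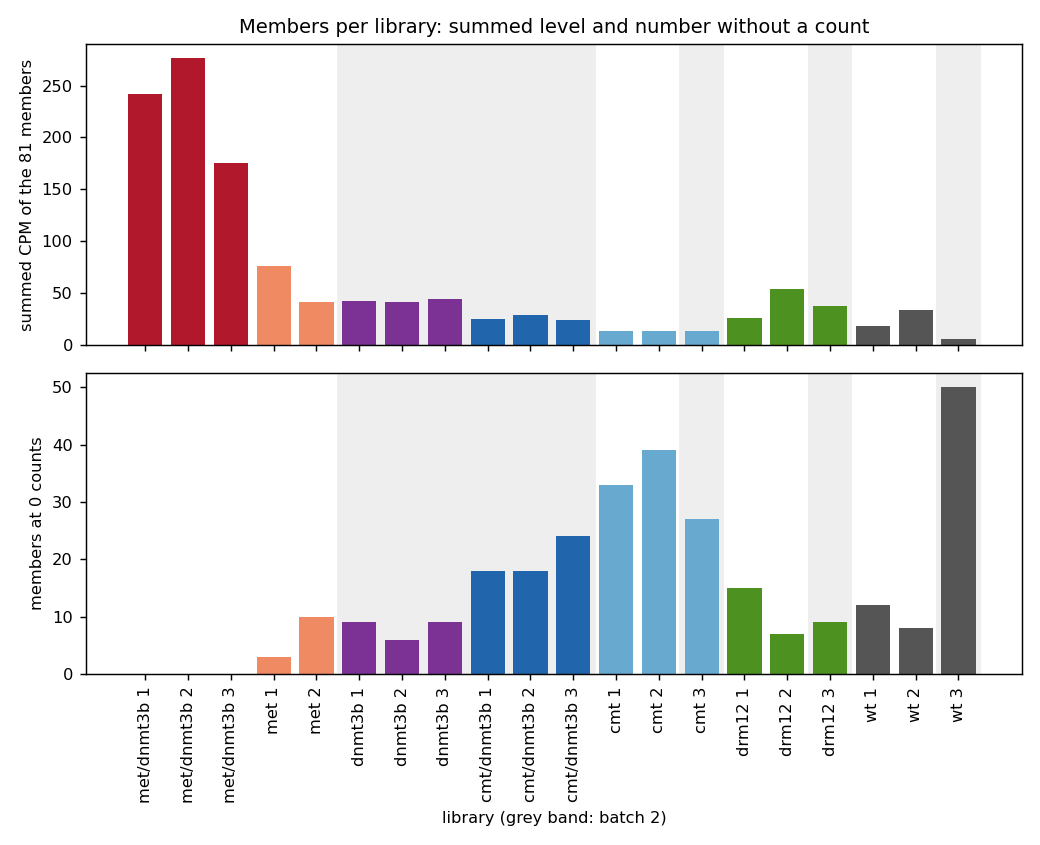
Summed CPM of the 81 members (upper bars) and number of members at 0 counts (lower bars) in each of the 20 libraries, with batch 2 libraries on a grey band. The 3 met/dnmt3b libraries stand between 175.7 and 276.3 CPM and met replicate 1 follows at 75.9 CPM, while 50 members had no count in wt replicate 3 and 27 to 39 had none in the cmt libraries.

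The members also moved together between libraries of 1 genotype. Their sum was 75.9 CPM in met replicate 1 and 41.03 in met replicate 2, and 68 of 81 members were higher in met replicate 1, against 58.4% of 3160 other genes with a mean of 0.1 to 1 CPM over the met, dnmt3b and drm12 libraries. In drm12 the sums were 26.0, 53.9 and 37.3 CPM in replicates 1, 2 and 3, and 54 members were higher in replicate 2 than in replicate 1, against 45% of the other genes. The dnmt3b libraries were close to each other, at 42.0, 41.3 and 44.2 CPM. In met/dnmt3b, whose values the rule used, the sums were 241.8, 276.3 and 175.7 CPM, and replicate 3 was the lowest library for 53 of 81 members. Replicate 1 was above replicate 3 for 75.3% of members, against 48.3% of the other genes. Replicate 2 was above replicate 3 for 74.1%, against 53.6%. Levels in met therefore rest on 2 libraries whose sums lay further apart than the met and drm12 means.

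Few members reached 1 CPM in met or dnmt3b. Their share was larger than among other genes low in wt. It was smaller than among the genes on in met/dnmt3b that the cmt or cmt/dnmt3b level kept out. In met, 7 members had at least 1 CPM in both libraries (8.64%), against 0.255% of the 13736 other genes with a wt mean under 0.5 CPM. In dnmt3b, 4 members had at least 1 CPM in all 3 libraries (4.94%), against 0.48% of those genes. In drm12 there was 1 such member (1.23%), against 0.00728%. These member counts moved with single libraries, to 27 without met replicate 2, 7 without dnmt3b replicate 2, 5 without drm12 replicate 1 and 2 without drm12 replicate 3. The 13736 genes did not have to be on in met/dnmt3b, as the members did, so this difference is not read as a trait of the set. The 130 genes kept out by their cmt or cmt/dnmt3b level met the same wt and met/dnmt3b conditions as the members. Of these, 18 (13.8%) had at least 1 CPM in both met libraries, 17 (13.1%) in all dnmt3b libraries and 0 in all drm12 libraries. In met and dnmt3b these shares were larger than those of the members. Of the 130, 68 were kept out by cmt/dnmt3b alone and 60 by cmt/dnmt3b and cmt. The cmt/dnmt3b mutant also lacks DNMT3b and shares batch 2 with dnmt3b. Higher dnmt3b levels among the 130 can thus follow from how they were chosen, so nothing is read from the dnmt3b difference. The median gene mean in met was 0.511 CPM for the members and 0.443 CPM for those 130 genes, and in dnmt3b it was 0.383 and 0.709 CPM.

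For most members both single mutants stayed well under the met/dnmt3b level. The met mean was a median 21% of the met/dnmt3b mean, and the dnmt3b mean a median 16.4%. In 69 of 81 members every met/dnmt3b library lay above every met and dnmt3b library. The same held for 12.5% of all 20149 genes tested, and since the rule set a floor on met/dnmt3b nothing is read from the difference. In 8 members the met and dnmt3b means, added and less the wt mean, came to the met/dnmt3b mean or above. The rule acted on the met/dnmt3b and wt levels in this count, and no share over all genes was taken, so nothing is read from it either. The met mean reached the met/dnmt3b mean in 4 members (Pp3c10_40, Pp3c5_6330, Pp3c16_18789 and Pp3c24_15400), and the dnmt3b mean did so in 3 (Pp3c22_18360, Pp3c14_15610 and Pp3c20_22940).

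**Figure D3:**
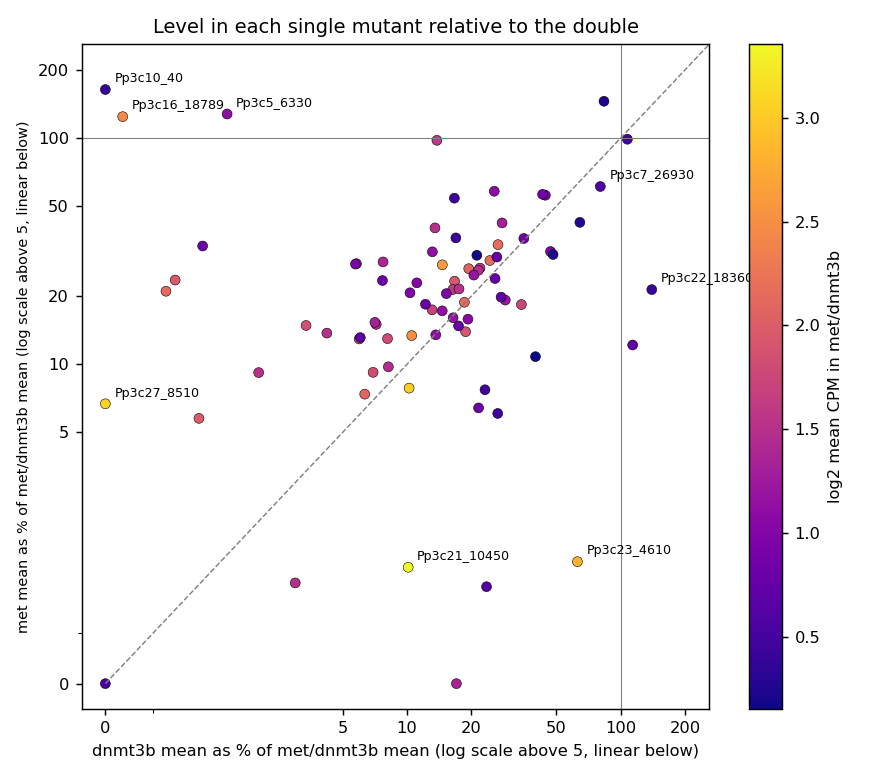
Mean level in met (vertical axis) and in dnmt3b (horizontal axis) as a percentage of the met/dnmt3b mean for each of the 81 members, on log axes that are linear below 5%. Colour gives the log2 mean CPM in met/dnmt3b, the dashed line marks equal levels and the grey lines mark 100%. Most points lie in the lower left, with medians of 21% for met and 16.4% for dnmt3b, and Pp3c16_18789, Pp3c10_40 and Pp3c5_6330 lie above 100% for met with under 5% for dnmt3b.

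Only the met, dnmt3b and drm12 libraries were not used to choose the members, so the tests were made among these 3 genotypes. They were edgeR quasi-likelihood tests that used the 20 libraries in 1 model of genotype plus batch. P-values were adjusted over genes and transposable elements together. The tests are not wholly free of the rule. The batch term rests on cmt, drm12 and wt, and the rule used the cmt and wt levels. Since met, dnmt3b and drm12 differ in their batches, the member estimates in all 3 contrasts draw partly on those levels. The reference drm12 is itself a mutant, so a difference from it can belong to either genotype of the contrast. The drm12 mean was above the wt mean in 67 of 81 members. The rule held wt low and no share over other genes was taken, so nothing is read from this count. All 81 members passed the low-count filter, but the rule ensured this. It asked for at least 1 CPM in the 3 met/dnmt3b libraries, which is more than the filter asks.

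In met, 2 members were higher than in drm12 and none was lower. The background was 0.139% of 20149 genes higher and 0.303% lower. Pp3c16_18789 had 7.68 and 5.85 CPM in met, against 0 counts in all 3 drm12 libraries. That is at least 120.0-fold higher, with the bound taken from 3 counts over the drm12 group (edgeR adjusted p = 0.00368). It had 5.39, 4.95 and 6.01 CPM in met/dnmt3b, 0, 0 and 0.0597 CPM in dnmt3b, and 0 counts in wt. This member was thus as high with MET alone lost as with both enzymes lost, and the libraries of the other genotypes did not reach 0.3 CPM.

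The other member higher in met was Pp3c10_40, with 1.26 and 3.003 CPM in met, against 0, 0 and 0.104 CPM in drm12. The ratio of pooled CPM was 58.5 with a 95% counting interval of 15.6 to 491.4, as drm12 held 2 counts (edgeR adjusted p = 0.0141). In met/dnmt3b it had 1.46, 1.18 and 1.26 CPM, and in dnmt3b 0 counts. It was also detected in cmt/dnmt3b, with 3, 4 and 14 counts, and in cmt, with 2, 0 and 2 counts. The call was lost without met replicate 2 (adjusted p = 0.0795) and without drm12 replicate 1 (adjusted p = 0.0595).

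Pp3c27_8510 gave a different order. It had 7.72, 7.97 and 9.55 CPM in met/dnmt3b, 0.480 and 0.644 CPM in met, and 0 counts in all dnmt3b, drm12 and wt libraries. The met level was 6.68% of the met/dnmt3b level. Against drm12 the met level was at least 10.1-fold higher but did not pass the threshold (20 counts against 0, edgeR adjusted p = 0.0617), while DESeq2 and the fit within batch 1 did call it (adjusted p = 0.00449 and 0.0351). In met and met/dnmt3b every library held reads of this gene, and among the other 15 libraries the highest was cmt/dnmt3b replicate 2 at 0.204 CPM.

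For the set as a whole, the direction of met against drm12 turned on single libraries. The median log2 fold change of the members was -0.04, against 0.03 over all genes tested, and 39 of 81 were positive. Without met replicate 1 the median was -0.71, with 23 positive, and without met replicate 2 it was 0.39, with 55 positive. It was -0.35 without drm12 replicate 1 and 0.30 without drm12 replicate 2. At an unadjusted p under 0.05 there were 11 members, against a background of 12.9% of genes. Within batch 1 the summed level in met was 1.46 times that in drm12, and over all libraries 1.497 times.

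In dnmt3b, 2 members were higher and 1 was lower than in drm12, beside a background of 0.62% higher and 3.4% lower. Pp3c23_4610 had 2.39, 4.96 and 5.85 CPM in dnmt3b, against 0.0615, 0 and 0.156 CPM in drm12 (log2 fold change 4.71 ± 0.78 SE, edgeR adjusted p = 0.00321). Its met libraries, at 0.180 and 0.161 CPM, lay far under, and its met/dnmt3b libraries had 6.19, 6.78 and 8.11 CPM. The dnmt3b mean was 62.7% of the met/dnmt3b mean, and the lowest met/dnmt3b library was above the highest dnmt3b library. In cmt/dnmt3b, where DNMT3b is also lost, it had 0.643, 0.340 and 0.680 CPM.

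Pp3c7_26930 had 1.02, 1.37 and 1.31 CPM in dnmt3b, against 0.123, 0.386 and 0 CPM in drm12 (log2 fold change 3.33 ± 0.79 SE, edgeR adjusted p = 0.0238). It also had 1.02 and 0.858 CPM in met, and 0.989, 0.476 and 0.567 CPM in cmt/dnmt3b and 0.902, 0.499 and 1.10 CPM in cmt. Its levels in the mutants of MET, CMT and DNMT3b all lay above the highest drm12 and wt libraries (0.386 and 0.358 CPM).

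Pp3c5_6330 went the other way. It had 0.114, 0.0506 and 0 CPM in dnmt3b, against 0.677, 1.87 and 1.14 CPM in drm12. The dnmt3b level was lower by 3.69 ± 0.88 (SE) on the log2 scale (edgeR adjusted p = 0.0240). Its drm12 mean of 1.23 CPM was also above its wt mean of 0.190 CPM, and its dnmt3b mean was 0.0548 CPM. It had 3.36 and 2.09 CPM in met and 1.80, 3.18 and 1.44 CPM in met/dnmt3b, so these 2 genotypes overlapped, and wt had 0.251, 0.179 and 0.140 CPM. For both Pp3c7_26930 and Pp3c5_6330 the call was lost with any 1 dnmt3b library left out (adjusted p between 0.0569 and 0.0914). With drm12 replicate 3 left out, the only drm12 library in batch 2, no member was called, and Pp3c23_4610 had a similar log2 fold change with a larger error (4.66 ± 1.58 SE, edgeR adjusted p = 0.274).

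For the set as a whole the direction of dnmt3b against drm12 turned on few libraries. The median log2 fold change of the members was 0.33, against 0.04 over all genes, with 50 of 81 positive. It was -0.21 without wt replicate 3, -0.11 with no batch term, and 1.38 without drm12 replicate 3. The batch term draws on wt and cmt levels that the rule used, so no direction is read from this median. Within batch 2 the summed level in dnmt3b was 1.14 times that of the 1 drm12 library there. At an unadjusted p under 0.05 there were 12 members, against a background of 18.5% of genes.

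No member passed the threshold between met and dnmt3b by edgeR. The background was 0.0199% of genes higher in met and 0.00496% lower. At an unadjusted p under 0.05 there were 12 members, against 4.9% of genes, and DESeq2 called 1 (Pp3c10_40, higher in met). These single mutants share no batch, so no value within a batch can be given, and the batch term rests on cmt, drm12 and wt. The rule used cmt and wt, so the fitted differences between met and dnmt3b are not free of it. In 17 members both met libraries lay above every dnmt3b library, and in 11 every dnmt3b library lay above both met libraries, beside backgrounds of 17.3% and 11.4% of genes. Pp3c16_18789 had 237 counts in met against 1 in dnmt3b, a ratio of pooled CPM of 363 with a 95% counting interval of 64.5 to 14389. The edgeR fit gave no usable estimate for this member (log2 fold change 5.38 ± 55.2 SE), so its adjusted p of 1 says nothing of the difference. DESeq2 gave it an adjusted p of 0.0941, and edgeR with no batch term 0.00458. The member with the smallest unadjusted p was Pp3c10_40 (77 counts in met against 0 in dnmt3b, at least 39.3-fold higher, edgeR adjusted p = 0.182), followed by Pp3c5_6330 (ratio of pooled CPM 48.5, 95% counting interval 16.1 to 239.2, adjusted p = 0.204). Both failed the correction.

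**Figure D4:**
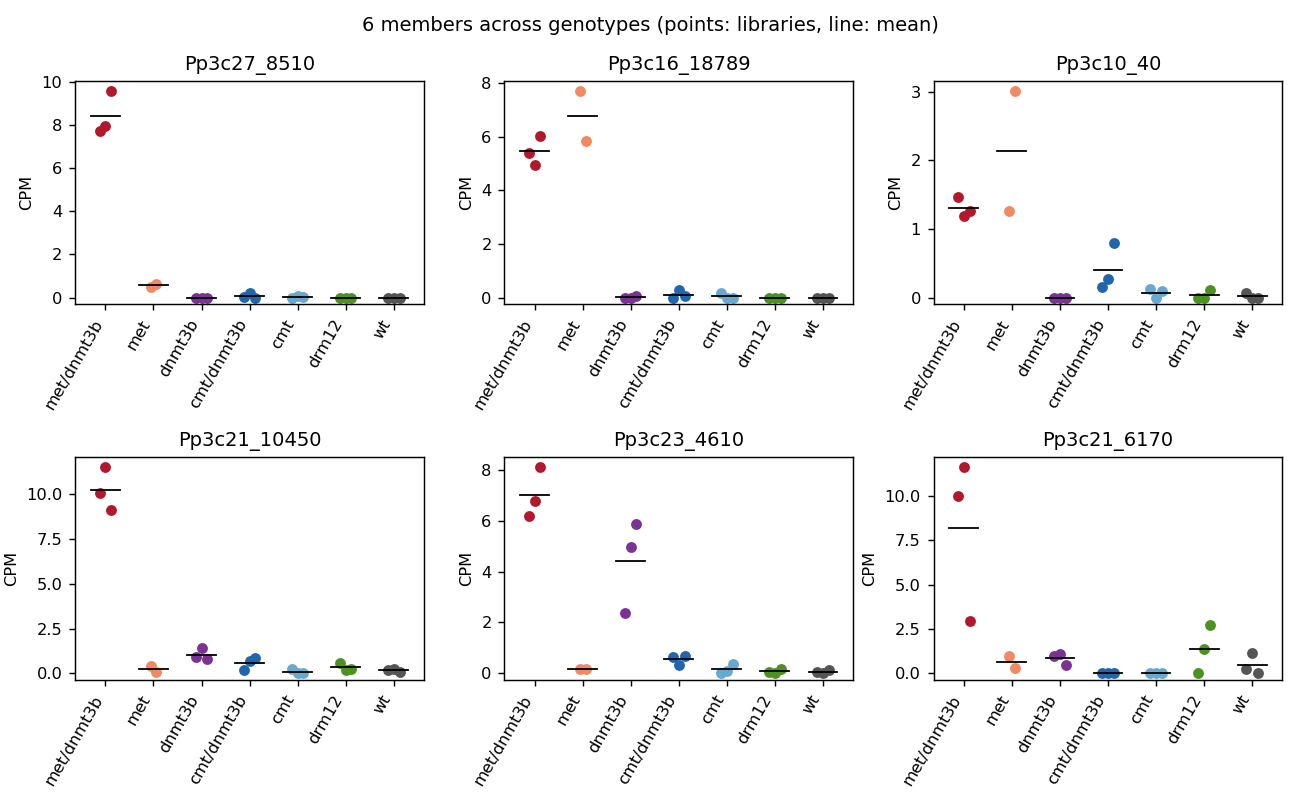
CPM of 6 members in each library (points) and the mean of each genotype (line), on linear axes that differ between panels. Pp3c16_18789 and Pp3c10_40 were as high in met as in met/dnmt3b, Pp3c27_8510 and Pp3c21_10450 were high in met/dnmt3b alone, Pp3c23_4610 was also raised in dnmt3b, and Pp3c21_6170 had low levels in met, dnmt3b and drm12 and 0 counts in cmt/dnmt3b and cmt.

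The 3 members whose dnmt3b mean reached the met/dnmt3b mean were all under 2 CPM in met/dnmt3b. Pp3c22_18360 had 1.06, 1.83 and 1.14 CPM in met/dnmt3b, 0.360 and 0.215 CPM in met, 2.05, 1.32 and 2.27 CPM in dnmt3b, 0.185, 0.110 and 0.572 CPM in drm12, and 0.125, 0.119 and 0.492 CPM in wt. Every dnmt3b library lay above every drm12 library, but the difference did not pass (edgeR adjusted p = 0.0806). Pp3c14_15610 had 2.50, 1.92 and 1.19 CPM in dnmt3b, and its drm12 libraries overlapped these at 0.554, 0.937 and 1.92 CPM. Pp3c20_22940 had nearly the same mean in met/dnmt3b, met and dnmt3b, at 1.38, 1.36 and 1.48 CPM.

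Several members were near silent in both single mutants or in met. Pp3c21_10450, with the most reads of the set, had 10.05, 11.5 and 9.13 CPM in met/dnmt3b, 0.420 and 0.0536 CPM in met, and 0.911, 1.42 and 0.777 CPM in dnmt3b. Its drm12 libraries had 0.554, 0.165 and 0.260 CPM and its wt libraries 0.188, 0.239 and 0.0702 CPM. The dnmt3b libraries were all above the drm12 libraries, without passing the test (log2 fold change 2.46 ± 0.89 SE, edgeR adjusted p = 0.156).

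Pp3c4_22670 had 2.53, 2.53 and 2.58 CPM in met/dnmt3b, 0 counts in met, 0.398, 0.304 and 0.597 CPM in dnmt3b, and 1 count each over the drm12 and wt groups. The met/dnmt3b level was at least 29.98-fold above met. Pp3c7_25050 had 3.93, 4.31 and 3.60 CPM in met/dnmt3b, against 0.240 and 0.215 CPM in met and 0.114, 0 and 0.119 CPM in dnmt3b. It reached 1.29 CPM in drm12 and 0.896 CPM in wt, but at most 0.180 CPM in cmt. Pp3c10_17920, chosen after its values were seen, was the member with 0 counts in both single mutants, and it had 1.80, 1.29 and 1.26 CPM in met/dnmt3b.

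Several of the members with the most reads were detected in met, dnmt3b, drm12 and wt, and most of those described next were lower or absent in cmt/dnmt3b and cmt. Pp3c21_6170 had 9.98, 11.6 and 2.94 CPM in met/dnmt3b, 0.960 and 0.322 CPM in met, 0.968, 1.06 and 0.478 CPM in dnmt3b, 0, 1.38 and 2.71 CPM in drm12, and 0.251, 1.14 and 0 CPM in wt. In cmt/dnmt3b and cmt it had 0 counts in all 6 libraries. Pp3c14_19530 had 5.06, 5.60 and 2.704 CPM in met/dnmt3b, between 0.697 and 1.86 CPM in the met and dnmt3b libraries, and 0 counts in cmt. Pp3c23_9820 had 0 counts in cmt/dnmt3b, and 5.72, 8.40 and 2.88 CPM in met/dnmt3b. Pp3c6_8800, Pp3c1_27500 and Pp3c7_26210, with met/dnmt3b means of 6.09, 4.52 and 4.43 CPM, had drm12 means of 1.34, 1.16 and 0.999 CPM and cmt means of 0.449, 0.0153 and 0.115 CPM. Their wt means were 0.449, 0.407 and 0.285 CPM, so Pp3c6_8800 was not lower in cmt than in wt. Over the set, 35 of 81 members had at most 3 counts in the 3 cmt libraries together, against 5 in drm12 and 16 in wt. In cmt/dnmt3b 14 members had at most 3 counts, and 41 of 81 had a mean above their wt mean, against 25 in cmt. The rule kept cmt and cmt/dnmt3b under 1 CPM, and no share of other genes above wt was taken, so this is a description.

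The 39 members with counts in wt replicates 1 and 2 and none in wt replicate 3 were grouped after the values were seen. Their sum was 121.1, 140.3 and 70.5 CPM in met/dnmt3b, 31.2 and 12.2 CPM in met, 10.2, 28.6 and 20.03 CPM in drm12, and 9.79, 19.4 and 0 CPM in wt. The other 42 members summed to 120.7, 136.0 and 105.2 CPM in met/dnmt3b, 44.7 and 28.8 CPM in met, 15.8, 25.3 and 17.3 CPM in drm12, and 8.84, 14.3 and 5.69 CPM in wt. Of the 7 members with at least 1 CPM in both met libraries, 1 was in the first of these groups and 6 in the second. Members with at most 3 counts over wt and drm12 together numbered 5: Pp3c27_8510, Pp3c16_18789, Pp3c4_22670, Pp3c10_40 and Pp3c24_1050. All were in the second group, which the grouping itself largely fixed, since the first required counts in 2 wt libraries. In these 5 the met/dnmt3b libraries were close to each other, with an SD of 0.0312 to 0.995 CPM. This was not particular to them. Some other members lay in that range, such as Pp3c7_25050 (0.352 CPM), and some above it, such as Pp3c21_6170 (4.61 CPM).

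The contrast of met/dnmt3b with wt was used by the rule. By edgeR 71 of 81 members were called higher there and none lower, beside 5.44% and 4.24% of all genes tested, and nothing is read from this count. It was 43 without wt replicate 1. Pp3c24_15400 was among those that did not pass (adjusted p = 0.0723). It had 1.06, 1.40 and 1.08 CPM in met/dnmt3b, 1.5003 and 1.93 CPM in met, and 0.125, 0.538 and 0.0702 CPM in wt.

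The members nearest the met/dnmt3b limit of 1 CPM were Pp3c3_30560, Pp3c20_22940 and Pp3c16_3130, each with 1.02 CPM in its lowest library. The nearest genes outside, Pp3c9_620, Pp3c2_17412 and Pp3c15_17010, had 0.961 CPM in theirs. Pp3c3_30560 and Pp3c16_3130 owed this to met/dnmt3b replicate 3, with 3.13 and 4.36 CPM and 4.26 and 5.65 CPM in replicates 1 and 2. Without met/dnmt3b replicate 3 the rule gives 117 genes, the 81 members among them.

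The members were spread over the genome. Read from the number that follows the prefix of each identifier, a convention not checked against an annotation, they lay on 26 of 27 chromosomes, with 6 on chromosome 3 and 5 each on chromosomes 7, 10, 15, 20 and 21. Chromosome 3 held 7.41% of the members, against 5.68% of all genes numbered this way. Chromosomes 7, 10, 15, 20 and 21 each held 6.17% of the members, against 3.11% (chromosome 21) to 4.12% (chromosome 7) of genes. These small counts were not tested. One pair of members was adjacent in identifier order, Pp3c10_18909 and Pp3c10_18920. They had 1.73, 1.18 and 1.26 CPM and 1.40, 1.18 and 1.56 CPM in met/dnmt3b. The sources used here do not give the strand setting of the counts, and overlapping neighbours can share reads, so these 2 may not be separate observations.

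Pp3c5_6310 and Pp3c5_6330 were separated by 1 gene, Pp3c5_6320, which had at most 0.240 CPM in any library. Pp3c5_6310 had 2.66, 2.96 and 3.30 CPM in met/dnmt3b, 3.66 and 2.15 CPM in met, 0.512, 0.658 and 0.0597 CPM in dnmt3b, and 2.40, 2.20 and 1.09 CPM in drm12. Like its partner it was lower in every dnmt3b library than in any met or drm12 library, but it did not pass the test against drm12 (log2 fold change -1.09 ± 0.71 SE, edgeR adjusted p = 0.465).

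The genes next to members in identifier order were also compared between met/dnmt3b and wt, since their own values had no part in the rule. No test was made of neighbours against other genes. Of 158 neighbours that were not members, 93 passed the low-count filter, and 9 were higher (9.68%) and 2 lower (2.15%) by edgeR. Among all 20068 non-member genes tested, 5.11% were higher and 4.26% lower. With 2 genes on each side, 18 of 201 were higher (8.96%). The median log2 fold change of the neighbours was 0.02, against -0.03 over non-members, so most neighbours stood where other genes did.

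Among the neighbours that rose was Pp3c12_13360, next to the member Pp3c12_13340 (edgeR adjusted p = 0.0102). It had 72.8, 90.1 and 32.9 CPM in met/dnmt3b, 18.0 and 2.41 CPM in met, 4.21, 5.27 and 5.91 CPM in dnmt3b, at most 1.09 CPM in the cmt/dnmt3b and cmt libraries, 1.29, 8.10 and 10.4 CPM in drm12, and 4.27, 9.86 and 0 CPM in wt. The member itself had 3.53, 4.58 and 1.68 CPM in met/dnmt3b, 1.08 and 0.0536 CPM in met, 0 counts in cmt/dnmt3b and cmt, and 0.188, 1.25 and 0 CPM in wt. Both genes were highest in met/dnmt3b replicate 2, were higher in met replicate 1 than in met replicate 2, and had no count in wt replicate 3. Whether reads of the more abundant gene were assigned to the member was not tested. Pp3c21_10430, next to Pp3c21_10450, also rose, with 14.7, 15.1 and 16.0 CPM in met/dnmt3b against 4.77, 2.45 and 1.48 CPM in wt (log2 fold change 2.26 ± 0.34 SE, edgeR adjusted p = 0.000245). Unlike the member it was well detected in all 20 libraries.

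**Figure D5:**
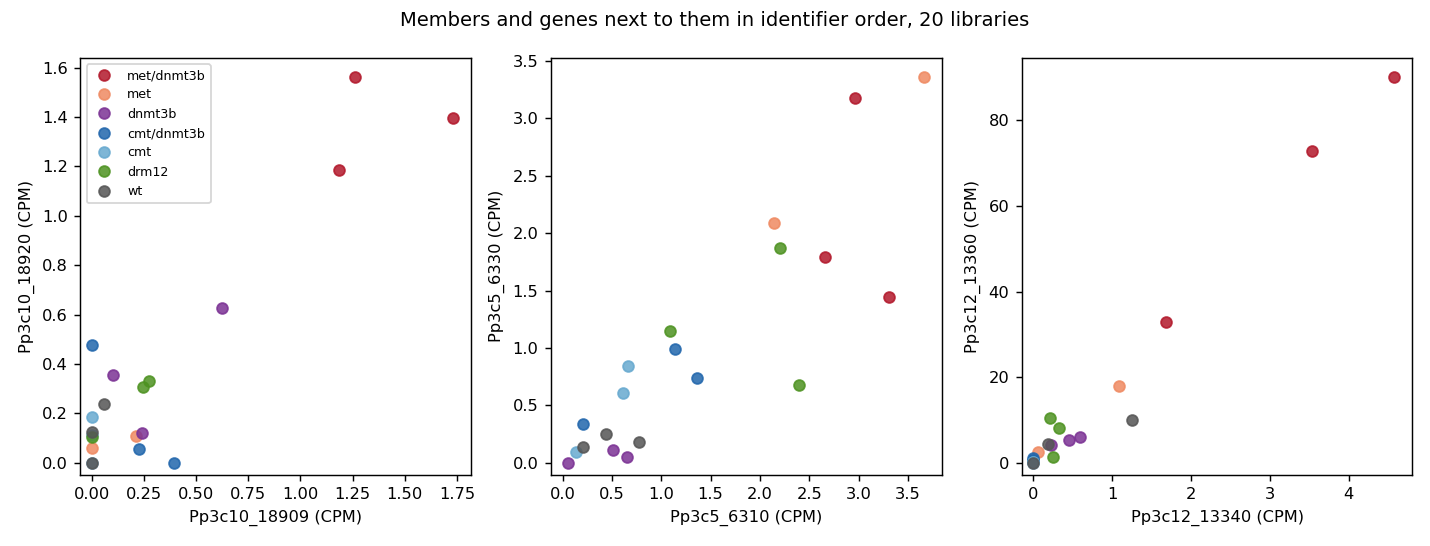
CPM in the 20 libraries of the adjacent members Pp3c10_18909 and Pp3c10_18920 (left), of the members Pp3c5_6310 and Pp3c5_6330 (middle), and of the member Pp3c12_13340 with its neighbour Pp3c12_13360 (right), coloured by genotype. Within each pair the libraries high for one gene are mostly high for the other, and in the right panel the neighbour reaches 90.1 CPM where the member has 4.58 CPM. The pairs were chosen after their values were seen.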

How the data were processed

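The authors deposited 1 table of raw counts per gene and transposable element (TE) for 20 libraries, with totals of 14236575 to 21811993 per library. The submitters' processing notes name STAR 2.7.0f, cutadapt 1.15 and Trim Galore 0.6.0 without their roles. The sources used here do not give the counter, strand setting, treatment of multi-mapping reads, genome build or annotation, so counts of genes that overlap others or have close copies are uncertain. CPM was the count divided by the column total over all 31967 gene and 241351 TE rows, times 1000000.

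Members and lists were chosen with earlier results of these data known. The main test was edgeR 4.0.16 (R 4.3.3), quasi-likelihood, with genotype and batch as terms and trimmed mean of M-values factors. Features were kept by filterByExpr (minimum count 10, total 15). P-values were adjusted by Benjamini-Hochberg over genes and TEs, with a threshold of 0.05. DESeq2 1.42.0 was an alternative. The code was tested on simulated data.

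Counting intervals are 95% exact intervals, and they and the floor of 3 counts cover counting error only. Named members are the 10 with the highest mean CPM in met/dnmt3b, the 8 highest in met and in dnmt3b, the 5 with the lowest met share of the met/dnmt3b level among those with a met/dnmt3b mean of at least 2 CPM, those called and those nearest the limit. Lists by product words could not be applied, as no product names match.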

Additional observations from a re-analysis of the deposited data

How the results depend on the processing

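The number of genes the rule picks was 44 with a wt mean under 0.25 CPM and 27 with at least 2 CPM in every met/dnmt3b library, and it lay between 66 and 117 with 1 met/dnmt3b or wt library left out. Members at or above the limit in every library numbered 24 (met), 17 (dnmt3b) and 3 (drm12) at 0.5 CPM, and 3, 1 and 0 at 2 CPM. With 1 library left out they were 8 to 27 in met, 4 to 7 in dnmt3b and 1 to 5 in drm12.

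For met against drm12, 4 members were higher with no low-count filter, beside 247 of 25846 genes. With 1 drm12 library left out 1 to 3 members were higher, beside 25 to 245 genes. For dnmt3b against drm12, 7 were higher and 2 lower with no filter, beside 309 and 1553 of 25846 genes. With no batch term 4 were higher and 2 lower, beside 637 and 1241 of 20149 genes. With genes and TEs adjusted separately 2 were lower, beside 767 genes. Within batch 2, where drm12 had 1 library, 66 members could be fitted. Their median log2 fold change was 0.17, against 0.06 over all genes. With 1 library left out 0 to 2 were higher and 0 to 2 lower, beside 34 to 458 and 34 to 1195 genes. For met against dnmt3b, 2 were higher with no filter, beside 74 genes, and 1 by DESeq2, beside 10 genes. With no batch term 3 were higher and 1 lower, beside 18 and 12 genes. The calls against wt in met/dnmt3b were 43 to 68 with 1 library left out. Among neighbours, 18 were higher and 4 lower with 2 genes on each side (8.96% and 1.99%, against 5.11% and 4.26% of non-members). With no filter 6 were lower (4.72%, against 6.30%). The causes were not tested. No called member changed sign under any alternative run.

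With the replicate number as a block, 1 member was higher and 0 lower in dnmt3b against drm12, beside 19 and 121 of 20149 genes. Pp3c7_26930 (edgeR adjusted p = 0.114) and Pp3c5_6330 (edgeR adjusted p = 0.0802) were lost. The member counts for met against drm12 and met against dnmt3b were those without the block. Same-numbered libraries of dnmt3b and drm12 had correlations of 0.43, 0.04 and 0.17 (deviations from genotype means, 26751 features), so the numbers were not taken to pair the samples. The alternative without wt replicate 3 in the 3 tested contrasts, and all alternatives for met/dnmt3b against wt, were chosen after seeing the data. A 0 in 1 library bounds the level there at 3 counts (0.138 to 0.211 CPM), by counting error only. It does not show that the genotype is silent.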

Other observations

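Neighbours of members that rose in met/dnmt3b against wt included 2 that also had high levels in cmt/dnmt3b. Pp3c6_29260, next to Pp3c6_29200, had 13.7, 19.4 and 10.8 CPM in met/dnmt3b, 61.8, 57.2 and 53.3 CPM in cmt/dnmt3b, 2.89, 6.43 and 18.2 CPM in cmt, and 1.32, 0.657 and 2.81 CPM in wt. Pp3c15_20930, next to Pp3c15_21000, had 40.3, 57.8 and 37.9 CPM in met/dnmt3b, 37.1, 22.6 and 22.0 CPM in dnmt3b, 32.5, 27.7 and 41.5 CPM in cmt/dnmt3b, and 4.83, 3.29 and 4.85 CPM in wt. The members beside them, Pp3c6_29200 and Pp3c15_21000, had means of 2.16 and 1.65 CPM in met/dnmt3b and 0.0807 and 0.243 CPM in wt. In cmt/dnmt3b, where the rule kept members under 1 CPM, their means were 0.877 and 0.602 CPM, also above wt. These pairs were picked out after their values were seen, and no test was made of them as pairs.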
